A study of Mus musculus with 10 samples.

Results

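The genes described here are those of the membrane fusion machinery of regulated secretion, measured in pancreatic islets of mice that carry 1 altered copy of Men1 and of wildtype littermates. They were chosen by symbol alone, as every probe set whose annotated symbol is a numbered Syt, Stx, Vamp, Snap, Stxbp, Cplx or Unc13 gene. The rule found 55 genes of 18193 named on the array, through 127 probe sets, a probe set being the group of short oligonucleotides that gives 1 value for a transcript. All mice were females aged 5 weeks on a strain labelled C57 on a 129 background, with 5 wildtype and 5 heterozygous animals, no treatment, and 1 RNA sample per mouse from about 100 islets pooled within that mouse. The sources used here do not describe the altered Men1 allele. Men1 encodes menin, a tumour suppressor of endocrine cells.

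Insulin, glucagon and somatostatin are stored in granules that fuse with the plasma membrane when calcium enters the cell. Fusion is driven by SNARE proteins: a VAMP on the granule zips together with a syntaxin and a SNAP protein on the plasma membrane. Some Stxbp proteins and the Unc13 family prepare the syntaxin for this step, while Stxbp5 and Stxbp6 hold fusion back. Complexins clamp the assembled bundle, and synaptotagmins, many of which bind calcium, act as the trigger. Some of the genes that match the rule work elsewhere, since several syntaxins and VAMPs serve the Golgi, endosomes or autophagosomes, and Snap91 encodes AP180, a clathrin adaptor of endocytosis that shares only its symbol with the SNAP proteins.

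Values are on the log2 scale, so that a step of 1 is a doubling of array signal. Of 45037 probe sets without controls, 18567 lay above 4 on at least 5 of the 10 arrays, and these were compared. The median of an array was 3.28 at the lowest and 3.40 at the highest, and each array had between 18458 and 18890 probe sets above 4. Men1 itself gave 6.89 ± 0.39 (SD, n = 5) in wildtype and 6.42 ± 0.30 (SD, n = 5) in heterozygous mice, with p = 0.0635 by an exact permutation test. Whether its probes lie in the altered part is unknown here, so that this value is no check of the labels. The tissue label was borne out by beta cell genes, with mean Ins2 signals of 16.28 (wildtype) and 16.23 (heterozygous) and all 10 named beta cell markers above the filter. Other cells were present: the mean of 14 acinar markers ran from 15.35 to 15.89 over the mice, and that of 12 stromal markers lay at 9.63 to 10.42 in wildtype and 8.57 to 10.42 in heterozygous islets. The mean of 7 lymphocyte markers reached 7.11 and 6.56 in heterozygous replicates 2 and 5, against 4.60 to 5.63 in the other 8 mice. Of 14 named lymphocyte markers only these 7 were measured, and Cd2, Cd3d, Cd3e, Cd3g, Cd4, Cd79b and Cd8a did not pass the filter. In such bulk samples, fewer cells of a type and less RNA per cell cannot be told apart.

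Of the 55 genes, 40 were measured above background, through 81 of their 127 probe sets, and 15 were not. Of the 81, 78 lay above 4 on all 10 arrays and the other 3 on 9 arrays, so that none was kept through 1 genotype alone. Just above the filter were a probe set of Stx8, at 4.04, and one of Vamp2 at 4.23, by the lowest of the 5 highest values. Just below it on the same measure were probe sets of Vamp5 at 3.98 and of Vamp1 at 3.89. All 8 intracellular syntaxins, all 4 SNAP genes and all 5 named Stxbp genes were measured, with 6 of 7 VAMPs, 4 of 6 plasma membrane syntaxins, 9 of 16 synaptotagmins, 2 of 4 complexins and 1 of 4 Munc13 genes.

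The 15 genes at background included family members that are known from neurons or blood cells. Among synaptotagmins, Syt2, Syt3, Syt6, Syt8, Syt10, Syt12 and Syt17 stayed at means of 1.88 to 3.43 on their brightest probe sets, and only Syt2 passed 4 on any array, at 4.05 in wildtype replicate 1. Stx11, a syntaxin of cytotoxic lymphocytes, was at 2.82, and Unc13d, the Munc13 of the same cells, at 2.26. Both were at background also in heterozygous replicates 2 and 5, the mice with the highest mean of the measured lymphocyte markers. The T cell markers Cd3d, Cd3e, Cd3g, Cd4 and Cd8a did not pass the filter, so that the presence of cytotoxic lymphocytes is not shown here. Cplx3 and Cplx4, complexins of the retina, were at 1.88 and 2.20. Vamp1, a neuronal VAMP, came closest to the filter with a mean of 3.94 and 2 arrays above 4. A value at background says that these probes gave no signal above it, not that the transcript was missing.

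Among the Munc13 genes, 1 relative was measured and 3 were not. Unc13b, which primes granules for release, was measured at 7.76, 7.81, 7.91, 8.10 and 7.95 in wildtype replicates 1 to 5 and at 7.89, 7.92, 7.92, 8.19 and 7.95 in heterozygous replicates 1 to 5. Unc13a, the main neuronal form, lay between 3.35 and 3.89 on all 10 arrays, and Unc13c was at 2.80 on its brightest probe set. The second probe set of Unc13b was itself at background, at 3.28, so that the measured level of this gene rests on 1 probe set. Signal depends on the probes, so that this is no measure of relative transcript amounts.

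Promoter windows, 250 bases before to 50 after an annotated start, were available from RefSeq (GRCm38.p6) for 43 of the 55 genes, 32 measured and 11 at background. They are shown for Unc13a and Unc13b, as relatives on opposite sides of the filter, for Stx1a, as the plasma membrane syntaxin of insulin release, and for Stxbp5, as the gene with the smallest unadjusted p below. Capitals mark matches, on either strand, to GGGCGG (a GC box), CCAAT (the site of the factor NF-Y), TATAAA (the TATA box), TGACGTCA (the cyclic AMP response element) or CAGCACC (a piece of the element bound by the neuronal repressor REST). None of these motifs contains another. The Unc13a window lies at chr8:71671708-71672007 on the minus strand, that of Unc13b at chr4:43058703-43059002 on the plus strand, that of Stx1a at chr5:135023232-135023531 on the plus strand and that of Stxbp5 at chr10:9900991-9901290 on the minus strand.
Unc13a: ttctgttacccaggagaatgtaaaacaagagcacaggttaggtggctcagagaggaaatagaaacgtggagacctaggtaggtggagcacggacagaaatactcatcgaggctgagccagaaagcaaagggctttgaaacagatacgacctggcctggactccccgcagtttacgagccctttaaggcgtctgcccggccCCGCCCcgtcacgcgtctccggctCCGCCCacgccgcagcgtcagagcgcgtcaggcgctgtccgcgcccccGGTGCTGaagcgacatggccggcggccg
Unc13b: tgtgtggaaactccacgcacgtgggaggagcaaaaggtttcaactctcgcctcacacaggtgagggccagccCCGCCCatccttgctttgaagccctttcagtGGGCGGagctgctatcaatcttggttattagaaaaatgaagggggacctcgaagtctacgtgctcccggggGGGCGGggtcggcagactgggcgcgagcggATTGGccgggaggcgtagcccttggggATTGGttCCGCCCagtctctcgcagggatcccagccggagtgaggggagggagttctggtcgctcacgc
Stx1a: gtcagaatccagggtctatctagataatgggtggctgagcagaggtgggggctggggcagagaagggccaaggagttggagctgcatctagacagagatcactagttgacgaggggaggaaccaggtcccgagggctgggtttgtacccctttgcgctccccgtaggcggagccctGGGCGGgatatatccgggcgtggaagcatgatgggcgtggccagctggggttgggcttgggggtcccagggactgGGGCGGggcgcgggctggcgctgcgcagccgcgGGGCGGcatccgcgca
Stxbp5: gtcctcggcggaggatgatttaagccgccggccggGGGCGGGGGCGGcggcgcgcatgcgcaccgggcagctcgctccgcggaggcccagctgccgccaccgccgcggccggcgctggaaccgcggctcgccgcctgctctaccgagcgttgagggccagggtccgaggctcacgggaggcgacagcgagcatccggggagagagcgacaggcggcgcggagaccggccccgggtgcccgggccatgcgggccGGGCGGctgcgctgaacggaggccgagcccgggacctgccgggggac

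Of these 4 windows, that of Unc13a held 2 GC boxes and 1 CAGCACC, that of Unc13b 4 GC boxes and 2 CCAAT boxes, and those of Stx1a and Stxbp5 3 GC boxes each, of which 2 of Stxbp5 adjoin. Over the whole family, a GC box stood in 26 of 38 windows of measured genes and 10 of 16 windows of genes at background, against 35.7% of all 32851 windows. TATAAA was found in 2 of 38 and 0 of 16 windows (13.6% of all), those of Stx2 and Stx3. CCAAT was in 13 of 38 and 5 of 16 (37.4% of all). The median number of CG pairs per window was 21 in measured genes and 16.5 in genes at background, against 7 over all windows. TGACGTCA was found in Stxbp3 alone (1.79% of all windows). The REST element piece CAGCACC stood in 1 of 38 windows of measured genes, that of Stxbp2, and in 4 of 16 windows of genes at background, those of Unc13a, Stx11, Syt10 and Syt8, against 7.14% of all. Genes with several starts have several windows, and a match describes letters in this window only.

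**Figure D1:**
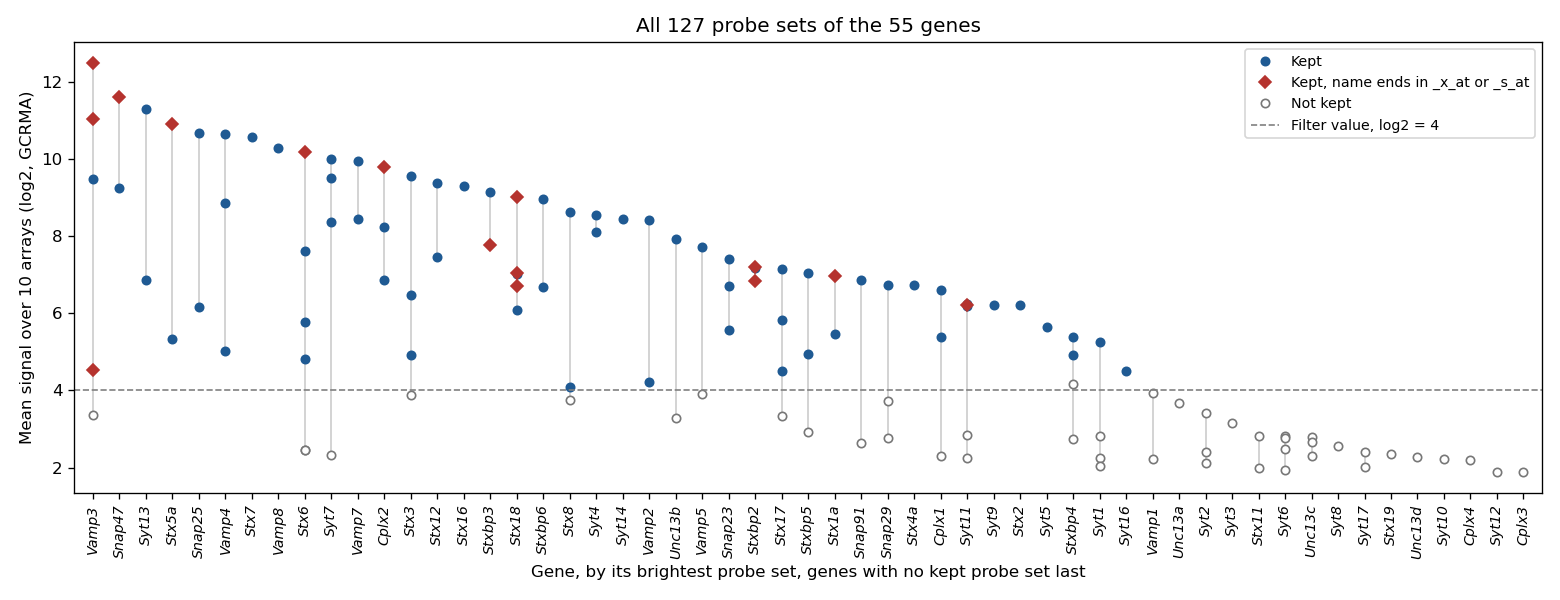
Mean signal over 10 arrays (log2, vertical axis) of all 127 probe sets of the 55 genes (horizontal axis, genes ordered by their brightest probe set, with the 15 genes at background last). Filled marks passed the filter at 4, open marks did not, and diamonds are kept probe sets whose names end in _x_at or _s_at; probe sets of the same gene often lie far apart, as in Vamp3 from 3.37 to 12.50.

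The order of array signal within each family depends on which probe set stands for a gene, and is not an order of transcript amounts. In the 26 genes with more than 1 kept probe set, the kept ones differed by a median of 2.33, and by up to 7.97 in Vamp3. The brightest kept probe set was used throughout. For 8 genes, Vamp3, Snap47, Stx5a, Stx6, Cplx2, Stx18, Stxbp2 and Stx1a, its name ends in _x_at or _s_at, which the manufacturer gives to probes that can match other transcripts too. With the brightest of the other probe sets, a choice made after the data were seen, Vamp3 stood at 9.49 in place of 12.50, Snap47 at 9.25 in place of 11.61, Stx5a at 5.34 in place of 10.91 and Stx1a at 5.46 in place of 6.98, while Stxbp2 was at 7.17 in place of 7.20.

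Among VAMPs, the granule and vesicle SNAREs, Vamp3 (cellubrevin) was brightest. Its values were 12.40, 12.39, 12.66, 12.60 and 12.46 in wildtype and 12.34, 12.50, 12.32, 12.64 and 12.71 in heterozygous replicates. The next was Vamp4, a VAMP of the trans-Golgi, at 10.62, 10.23, 10.81, 10.70 and 10.90 in wildtype and 10.68, 10.39, 10.43, 10.74 and 11.09 in heterozygous replicates. In both genes the genotypes covered much the same range, and heterozygous replicate 5 held the highest value. Vamp8, the VAMP of zymogen granules and late endosomes, followed at 10.28 and Vamp7, of lysosomes, at 9.96. Vamp2 (synaptobrevin), the VAMP of insulin granules, gave 8.43 and Vamp5, known from muscle and vessels, 7.71. With 14 acinar markers at 15.35 to 15.89, the cells behind Vamp8 cannot be told apart here. On probe sets of other name endings Vamp4, at 10.66, Vamp8 and Vamp7 all lay above Vamp3 at 9.49.

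Of the SNAP genes, Snap47, a broadly expressed relative without membrane anchor, was brightest at 11.54, 11.39, 11.76, 11.58 and 11.71 in wildtype and 11.52, 11.30, 11.56, 11.92 and 11.85 in heterozygous replicates. Snap25, the SNAP of neurons and endocrine cells, came next. It stood at 10.68, 10.32, 10.93, 10.59 and 10.69 in wildtype and 10.79, 10.65, 10.50, 10.70 and 11.07 in heterozygous replicates. Wildtype replicate 2 was lowest and heterozygous replicate 5 highest for Snap25. On the other probe set Snap47 was at 9.25, below Snap25 at 10.69, so that the order of these 2 turns with the probe set. Snap23, the form of non-neuronal cells, had a mean of 7.41 and Snap29, of endosomes and autophagosomes, 6.74.

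Among plasma membrane syntaxins, Stx3, a syntaxin of apical membranes and of granule to granule fusion, was brightest at 9.48, 9.27, 9.86, 9.45 and 9.89 in wildtype and 9.59, 9.54, 9.47, 9.42 and 9.79 in heterozygous replicates. Stx1a, the neuronal and islet partner of Snap25, followed at 6.84, 6.81, 7.57, 6.81 and 6.96 in wildtype and 6.84, 6.82, 6.83, 6.96 and 7.33 in heterozygous replicates. In Stx1a the mice with the highest values of each genotype, wildtype replicate 3 and heterozygous replicate 5, stood apart from an otherwise narrow group. Stx4a, which serves general plasma membrane fusion, and Stx2 had means of 6.73 and 6.21. Since Stx1a was at 5.46 on its other probe set, Stx4a and Stx2 lay above it there. The lead of Stx3 also rests on its brightest probe set. On its next one Stx3 was at 6.47, below Stx1a at 6.98 and Stx4a at 6.73 on their brightest.

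The intracellular syntaxins were led by Stx5a, of transport between endoplasmic reticulum and Golgi, at 10.80, 10.87, 11.12, 11.07 and 10.80 in wildtype and 10.90, 10.91, 11.00, 11.10 and 10.57 in heterozygous replicates. Stx7, of late endosomes, was next at 10.50, 10.32, 10.73, 10.56 and 10.77 in wildtype and 10.66, 10.47, 10.16, 10.56 and 10.94 in heterozygous replicates. Heterozygous replicate 5 was lowest of all 10 mice in Stx5a and highest in Stx7. Stx6, Stx12, Stx16, Stx18 and Stx8 had means from 10.19 down to 8.62, and Stx17, of autophagosomes, was dimmest at 7.15. This order turns with the probe set: on those without the _x_at or _s_at ending Stx5a was at 5.34, the dimmest of the 8, Stx18 at 7.01 and Stx6 at 7.62, and Stx7 was brightest.

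Of 9 measured synaptotagmins, Syt13 was brightest, an atypical member that lacks the usual calcium-binding residues. It stood at 11.43, 10.78, 12.02, 11.24 and 11.24 in wildtype and 11.71, 10.97, 11.02, 11.03 and 11.61 in heterozygous replicates. Syt7, a high-affinity calcium sensor of slow release, followed at 9.92, 9.79, 10.23, 10.13 and 9.77 in wildtype and 10.21, 9.81, 9.77, 9.88 and 10.49 in heterozygous replicates. For both genes wildtype replicate 3 was the highest wildtype mouse, and for Syt13 wildtype replicate 2 was lowest of all. Syt4, a form of dense-core granules, and Syt14 had means of 8.55 and 8.46. The classical fast calcium sensors were dim, with Syt9 at 6.23, Syt5 at 5.64 and Syt1 at 5.26. For Syt1, 3 of its 4 probe sets were at background. Syt11, which does not bind calcium, was at 6.25 and Syt16 at 4.50, the lowest of all 40 genes. On its dimmer kept probe set Syt13 was at 6.88, below all 3 kept probe sets of Syt7 and both of Syt4.

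Among proteins that bind syntaxins, Stxbp3 (Munc18c), a partner of Stx4a, was brightest at 9.11, 9.09, 9.03, 8.79 and 9.44 in wildtype and 9.35, 9.14, 8.80, 9.36 and 9.27 in heterozygous replicates. Stxbp6 (amisyn), which holds back fusion, was next at 8.97, 9.21, 8.86, 8.63 and 8.75 in wildtype and 9.26, 9.03, 8.98, 9.16 and 8.93 in heterozygous replicates. Stxbp2 (Munc18b) and Stxbp4 (synip) had means of 7.20 and 5.39 and varied little, by 0.24 and 0.37 between the lowest and highest mouse. Of the complexins, Cplx2 was bright at 9.93, 9.57, 10.25, 9.78 and 9.46 in wildtype and 9.98, 9.59, 9.53, 9.66 and 10.10 in heterozygous replicates, and Cplx1 lay at 6.62 on its brightest probe set. Cplx2 remained above Cplx1, at 8.25, on its other leading probe set. The clathrin adaptor gene Snap91 was measured at 6.85, 7.01, 7.08, 5.80 and 6.97 in wildtype and 7.06, 6.38, 6.92, 7.23 and 7.45 in heterozygous replicates, where wildtype replicate 4 was far below the rest.

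**Figure D2:**
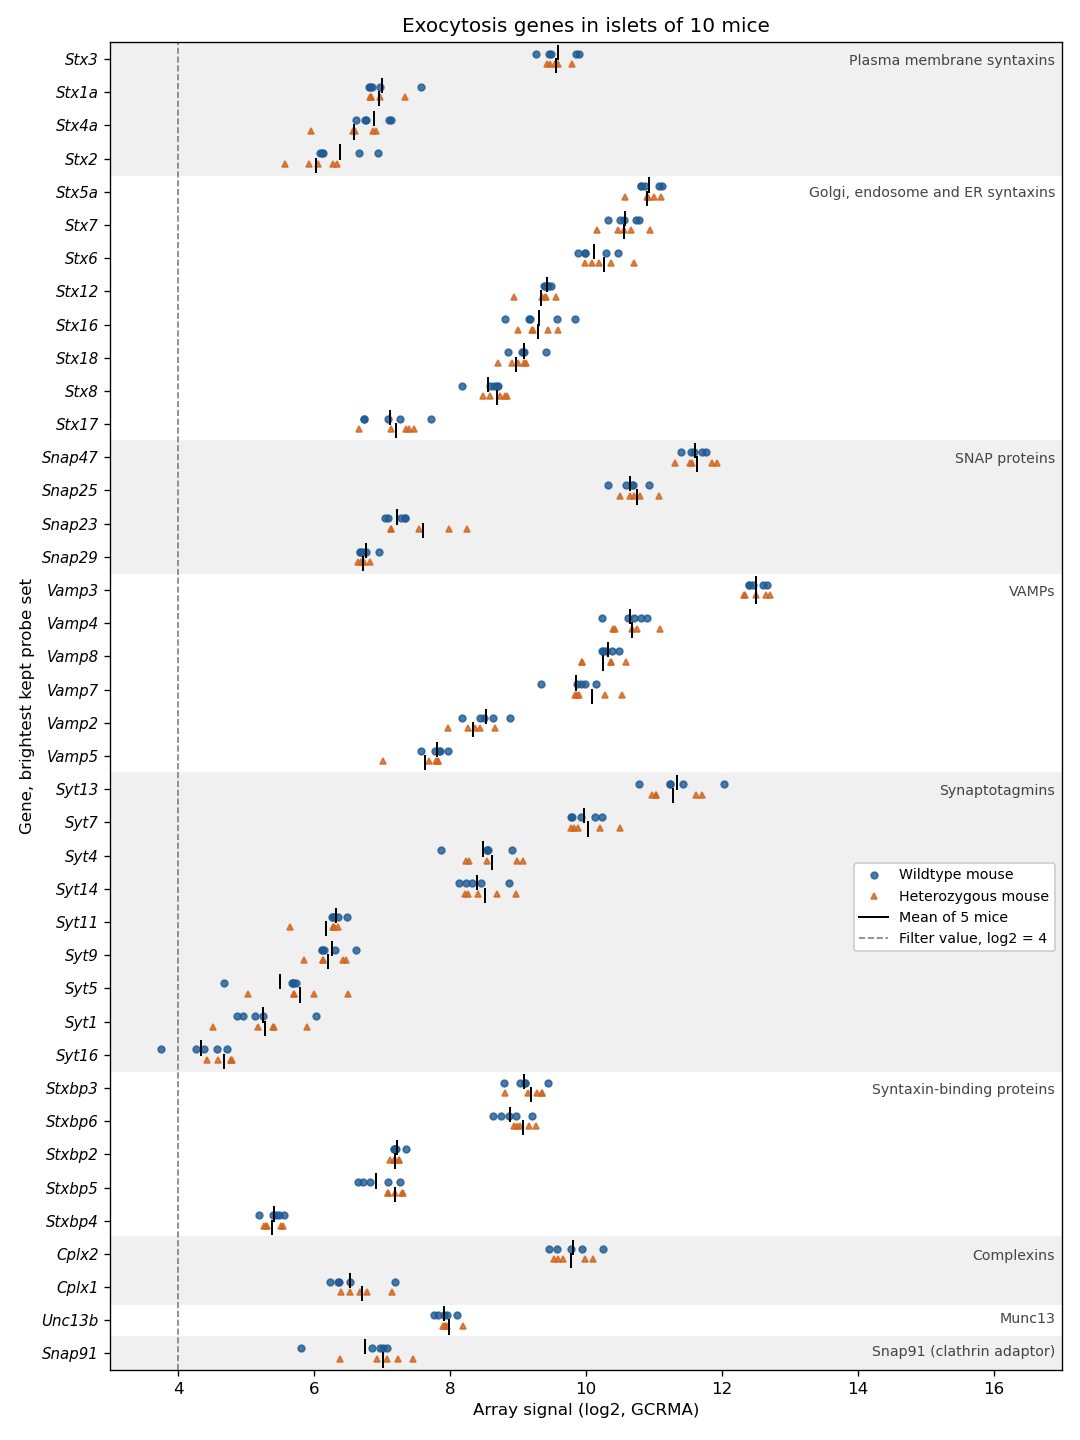
Array signal (log2, horizontal axis) of the 40 measured genes, grouped by role, in each of the 5 wildtype mice (circles) and 5 heterozygous mice (triangles), with black bars at the group means. The genotypes overlap in every gene; Vamp3 is brightest at 12.50 and Syt16 dimmest at 4.50.

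The comparison between genotypes asked whether this machinery differs in Men1 heterozygous islets. By limma with Benjamini-Hochberg adjustment, 0 of 81 member probe sets passed an adjusted p of 0.05, as did 0 of 18567 over the whole array (0%), and the smallest adjusted p of a member was 0.9999. At an unadjusted p under 0.05 there were 2 member probe sets, or 2.47%, below the share of 4.09% over all probe sets. The groups were free of overlap in 0 of 81, against 0.700% of all probe sets. Of the 40 genes 20 had a difference above 0 and 20 below, a split that rested on single mice: without wildtype replicate 3 it was 30 above and 10 below, without heterozygous replicate 3 it was 25 and 15, and without wildtype replicate 2 or heterozygous replicate 5 it was 17 and 23. Their median difference, heterozygous minus wildtype, was 0.0072, against 0.014 over all 10538 genes measured, of which 5734 lay above 0 and 4804 below. The median absolute difference was 0.095 in the family and 0.096 over all genes.

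The precision set by 5 mice against 5 was a median 95% interval of 0.35 to either side in the family and 0.33 over all genes. A change of 2-fold or more in either direction lay outside the interval for all 40 genes on their brightest probe sets, and for 94.8% of all genes measured. Of all 81 member probe sets, 2 dimmer ones had intervals that include 2-fold, 1 of Cplx2 (-0.092 to 1.12) and 1 of Stx5a (-1.02 to 0.42). A change of 1.5-fold lay outside it for 29 of the 40 (72.5%), against 73.5% of all genes. Changes inside these intervals were not detectable with this number of arrays, so that the lack of calls does not show equal levels. On the brightest probe sets, the intervals that exclude 1.5-fold include those of the central fusion genes Snap25 (difference 0.10, 95% interval -0.19 to 0.40), Stx1a (-0.043, -0.41 to 0.32), Vamp2 (-0.19, -0.53 to 0.16), Syt7 (0.063, -0.29 to 0.41), Unc13b (0.067, -0.15 to 0.28) and Cplx2 (-0.027, -0.40 to 0.35). The narrowest interval was that of Stxbp2 (-0.20 to 0.14) and the widest that of Syt5 (-0.32 to 0.92).

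**Figure D3:**
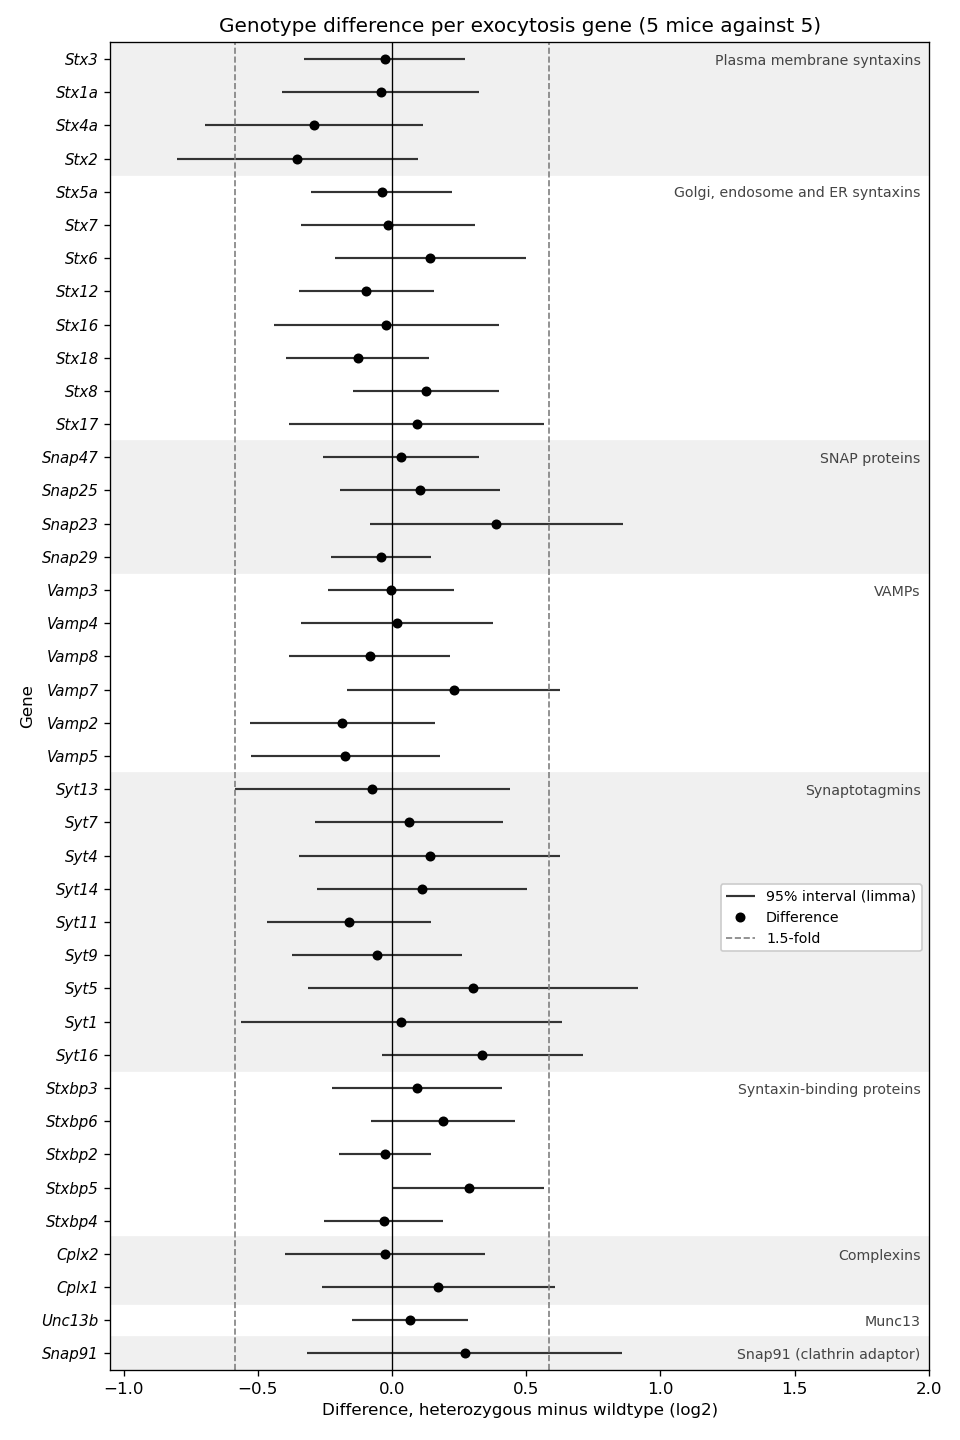
Difference between heterozygous and wildtype islets (log2, horizontal axis) of the 40 measured genes with 95% intervals from limma, by role, with dashed lines at 1.5-fold. All intervals of these brightest probe sets lie within 2-fold, 29 lie within 1.5-fold, and only that of Stxbp5 does not include 0.

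The gene with the smallest unadjusted p was Stxbp5 (tomosyn), which binds syntaxin and SNAP in place of a VAMP and so restrains fusion. It stood at 6.82, 7.09, 6.64, 6.72 and 7.26 in wildtype and 7.30, 7.09, 7.09, 7.29 and 7.19 in heterozygous replicates. All 5 heterozygous mice lay above the wildtype mean and 2 above every wildtype mouse, with wildtype replicates 2 and 5 inside the heterozygous range. The wildtype mean was 6.91 ± 0.26 and the heterozygous mean 7.19 ± 0.10 (SD, 5 mice each). The difference of 0.28 (SE 0.13) had an unadjusted p of 0.0485, an exact permutation p of 0.0635 and, in limma, an adjusted p of 0.9999. Without wildtype replicate 3 it was 0.22 and without wildtype replicate 5 it was 0.37. Its second kept probe set, at 4.96, went the same way.

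The other member probe set at an unadjusted p under 0.05 belonged to Stxbp3, named here after its values were seen. It is not the brightest of that gene and its name ends in _x_at. It stood at 7.70, 7.42, 7.55, 7.54 and 7.81 in wildtype and at 8.04, 7.76, 7.93, 7.89 and 8.16 in heterozygous replicates, so that only heterozygous replicate 2 lay below the highest wildtype mouse. The difference was 0.35 (SE 0.11; limma unadjusted p = 0.00763, adjusted p = 0.9999). The brighter Stxbp3 probe set, at 9.14, differed by 0.093 (-0.22 to 0.41), so that the 2 probe sets of the gene gave the same direction at different sizes.

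The remaining genes with the smallest p were Syt16, Snap23, Stx2, Stx4a and Stxbp6, none of which passed. Syt16, a synaptotagmin without calcium binding, was close to background at 4.57, 4.37, 4.26, 3.75 and 4.71 in wildtype and 4.79, 4.77, 4.42, 4.78 and 4.59 in heterozygous replicates (difference 0.34, SE 0.17, unadjusted p = 0.0738). Wildtype replicate 4, the lowest value and the only one under the filter, stood apart, and without it the difference was 0.19. Snap23 stood at 7.08, 7.33, 7.28, 7.34 and 7.04 in wildtype and 7.54, 7.12, 7.12, 7.98 and 8.25 in heterozygous replicates. Its difference of 0.39 (SE 0.21, unadjusted p = 0.0965), the largest of the 40, had heterozygous replicates 1, 4 and 5 above every wildtype mouse, and without replicate 5 it was 0.23. The other 2 Snap23 probe sets differed by 0.075 and -0.016.

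Stx2 and Stx4a, the syntaxins of general surface transport, had the lowest differences. Stx2 stood at 6.08, 6.11, 6.66, 6.13 and 6.94 in wildtype and 5.93, 6.05, 5.56, 6.33 and 6.27 in heterozygous replicates (-0.35, SE 0.20, unadjusted p = 0.110), with wildtype replicate 5 highest and heterozygous replicate 3 lowest. Stx4a stood at 6.75, 6.61, 7.10, 6.76 and 7.13 in wildtype and 6.59, 6.57, 5.96, 6.87 and 6.91 in heterozygous replicates (-0.29, SE 0.18, unadjusted p = 0.144), again with wildtype replicate 5 highest and heterozygous replicate 3 lowest. Without heterozygous replicate 3 the difference of Stx4a was -0.14. Without wildtype replicate 5 that of Stx2 was -0.22. Of measured stromal and endothelial markers, 12 of 12 and 8 of 9 also had differences below 0, with medians of -0.77 and -0.33, and 0 passed in limma. The stromal mean was lowest of all mice in heterozygous replicate 3, at 8.57, as was the endothelial one, at 7.38. Wildtype replicate 5, highest in both syntaxin genes, had the lowest stromal and endothelial means of the wildtype mice, at 9.628 and 7.795. The part of stromal and endothelial cells in the values of Stx2 and Stx4a was not tested. Stxbp6 was higher in all 5 heterozygous mice than the wildtype mean (0.19, SE 0.12, unadjusted p = 0.146).

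By role and on the brightest probe sets, all 4 plasma membrane syntaxins had differences below 0, with a median of -0.17. A dimmer kept probe set of Stx3, at 4.91, differed by 0.12. Another of Stx3 and the second of Stx1a differed by -0.24 and -0.046. Among intracellular syntaxins 3 of 8 lay above 0 (median -0.018). Of the 4 plasma membrane syntaxins, Stx3 and Stx1a lay at 0.039 and 0.10 without wildtype replicate 3. Stx3 lay at 0.047 without wildtype replicate 5 and at 0.0076 without heterozygous replicate 4. In contrast, Stx2 and Stx4a stayed below 0 without any 1 mouse. Of the SNAP genes 3 of 4 lay above 0 (0.069), of the VAMPs 2 of 6 (-0.043), of the synaptotagmins 6 of 9 (0.063) and of the Stxbp genes 3 of 5 (0.093). The complexins split, with Cplx1 at 0.17 and Cplx2 at -0.027. No role held a gene that passed, and only the Stxbp genes held one at an unadjusted p under 0.05. In Vamp2 the 2 kept probe sets went opposite ways, the bright one at -0.19 and the one near the filter at 0.25. Such opposite signs occurred in 12 of the 26 genes with more than 1 kept probe set. Cplx2 was among them, with 1 of its 3 probe sets at 0.51 (unadjusted p = 0.0888), and Stx18, where 3 of 5 opposed the brightest. On the leading probe set without the _x_at or _s_at ending Stx18 turned from -0.13 to 0.26 and Stxbp2 from -0.027 to 0.13, and Stx5a went from -0.039 to -0.30.

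The range over the 10 mice had a median of 0.79 in the 40 genes and 0.78 over all genes, and in 12 of the 40 it passed 1. Syt5 varied most, by 1.83, from 4.67 in wildtype replicate 5 to 6.50 in heterozygous replicate 5. Snap91 (1.66), Syt1 (1.51), Stx2 (1.37) and Syt13 (1.25) followed. Stxbp2 (0.24), Snap29 (0.31), Stxbp4 (0.37), Vamp3 (0.39) and Unc13b (0.43) varied least.

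Single mice were high or low in many of these genes at once. Heterozygous replicate 5 had the highest value of all 10 mice in 13 of the 40 genes, among them Snap25, Syt7, Vamp3, Vamp4, Vamp7, Stx6 and Stx7, and wildtype replicate 3 in 9, among them Stx1a, Syt13, Cplx2 and Vamp2. Heterozygous replicate 3 had the lowest value in 11, among them Vamp2, Vamp5, Stx4a, Stx7 and Syt7, and wildtype replicate 2 in 10, among them Snap25, Syt13, Vamp4 and Vamp7. Over all 10538 genes these shares were 23.8% highest in heterozygous replicate 5, 14.6% highest in wildtype replicate 3, 19.0% lowest in heterozygous replicate 3 and 10.6% lowest in wildtype replicate 2. The median deviation of the 40 genes was 0.19 in heterozygous replicate 5 and 0.15 in wildtype replicate 3, against 0.082 and 0.043 over all genes. It was -0.17 in heterozygous replicate 3 and -0.10 in wildtype replicate 2, against -0.066 and -0.0049.

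The mean of the 10 beta cell markers was highest at 12.30 in wildtype replicate 3 and 12.18 in heterozygous replicate 5, and lowest at 11.51 in wildtype replicate 2. It did not follow the family in every mouse: in heterozygous replicate 4, where the median deviation of the 40 genes was 0.10, it was 11.73, close to the 11.70 of heterozygous replicate 3. The acinar mean was lowest in heterozygous replicate 5, at 15.35, and wildtype replicate 3 was next at 15.58. The signal at the 3' end of Gapdh exceeded that at the 5' end by 3.24 in heterozygous replicate 5 and by 3.70 in heterozygous replicate 3, the lowest and highest of the 10 mice, a measure of RNA quality and of shortening during amplification. The same measure on actin had another order, with heterozygous replicate 4 highest at 3.65, heterozygous replicate 3 at 3.43, heterozygous replicate 5 at 3.28 and wildtype replicate 4 lowest at 2.96. The part of islet content or RNA quality in these shared deviations was not tested. With the beta cell mean as a covariate the median difference between genotypes was 0.0125 and 0 member probe sets passed in limma, with 1 at an unadjusted p under 0.05.

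**Figure D4:**
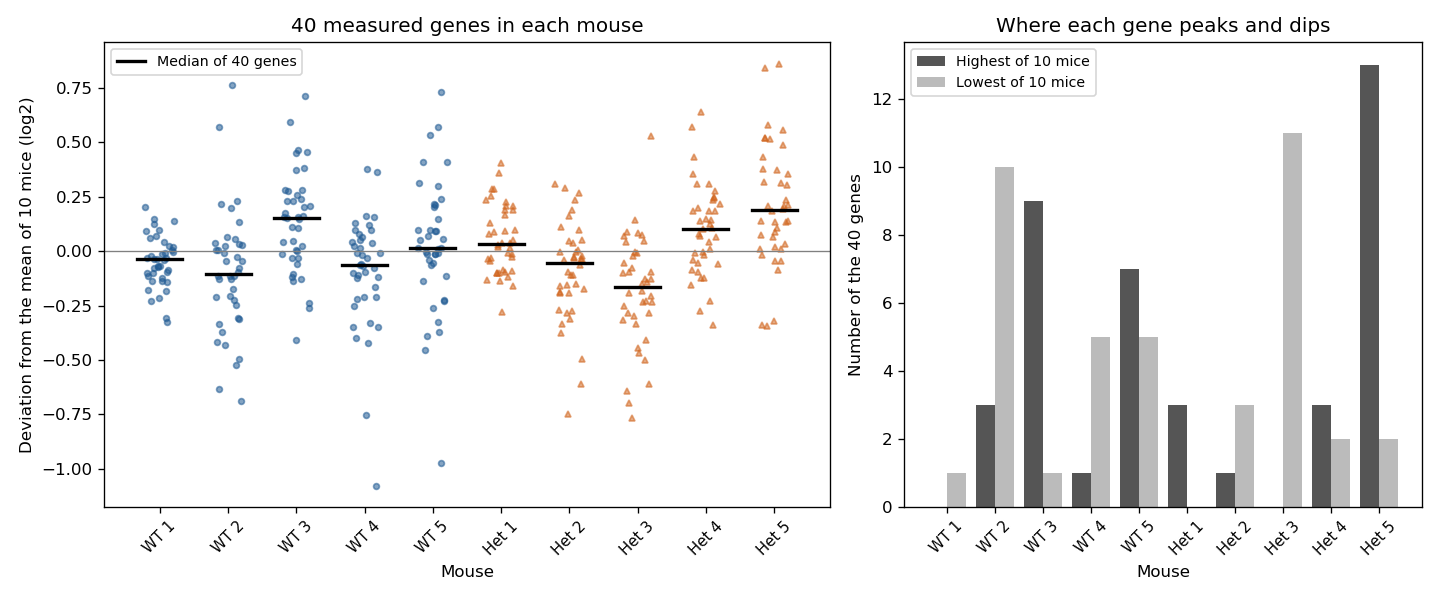
Left: deviation of each of the 40 measured genes from its mean over 10 mice (log2, vertical axis), by mouse, with circles for wildtype (WT) and triangles for heterozygous (Het) mice and black bars at the medians, highest in heterozygous replicate 5 (0.19) and lowest in heterozygous replicate 3 (-0.17). Right: number of the 40 genes that are highest (dark) or lowest (light) of 10 mice in each mouse.

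Other genes of the exocytosis pathway were taken from lists of granule docking and priming, SNARE recycling, the exocyst and further SNAREs. Of 19 measured docking and priming genes 0 passed in limma in either direction, with 12 above 0 and 7 below. The 2 with the smallest p were Rims2, an active zone scaffold that binds Rab3 on granules, at 8.66 ± 0.16 (heterozygous) against 8.32 ± 0.24 (wildtype; difference 0.34, SE 0.13, unadjusted p = 0.0269), and Pclo (piccolo), a large scaffold and calcium sensor, at 9.73 ± 0.45 against 9.24 ± 0.40 (0.49, SE 0.24, unadjusted p = 0.0663). Rims1, Rph3a, Doc2a, Doc2b, Rims4, Rab3c and Bsn were at background. Of 4 SNARE recycling genes 0 passed, and Nsf, the ATPase that takes SNARE bundles apart, differed by 0.071 (SE 0.11) and its adaptor Napa by 0.17 (SE 0.11). Of 9 exocyst genes, which tether vesicles, 0 passed and 7 lay above 0, with Exoc4 at 0.22 (SE 0.11) and Exoc6b at 0.24 (SE 0.15). Of 18 further SNAREs and SNARE regulators 0 passed and 12 lay above 0, with Stxbp5l, the closest relative of Stxbp5, at 8.03 ± 0.18 against 7.78 ± 0.22 (0.26, SE 0.13, unadjusted p = 0.0730) and Scfd2 at 0.37 (SE 0.22). Adjusted p was 0.9999 for each gene named from these lists.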

How the data were processed

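RNA of about 100 islets per mouse was amplified over 2 cycles from 100 ng and hybridised to 1 Affymetrix array per mouse, per the labels' protocols. The deposited log2 values come from GCRMA, as the submitters' processing notes list it; GCRMA adjusts background by probe sequence, normalizes between arrays and sums probes to probe sets. Its version and the scan times were not used here. No depth applies to arrays, and their number limits the precision.

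Groups came from the sample titles. Probe sets were named by the platform annotation where it gives 1 symbol; 1 probe set with several symbols, Vamp1 among them, was left out. A probe set was kept if it lay above 4 on at least 5 of 10 arrays, after 64 controls were removed. The kept probe set with the highest mean stood for a gene. Differences were fitted with lmFit and eBayes of limma 3.58.1 (R 4.3.3) over 18567 probe sets without covariates, two-sided, with Benjamini-Hochberg adjustment and a threshold of 0.05. Exact permutation tests, two-sided, used all 252 assignments of mice, with 0.00794 the smallest p they can give. The fit was tested on simulated data. Python 3.11.15 and matplotlib 3.10.9 made the figures.

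Members, roles, pathway lists and markers were chosen with earlier results of these data known. Values in every mouse are given for the 2 brightest genes of each role with at least 3 measured genes, the brightest of the others, the 6 genes with the smallest p, and any gene whose groups do not overlap, and from each pathway list the 2 genes with the smallest p are named. Protein sequences were not used here. Alternatives were the filter, further normalization, variance priors, weighted arrays, a block for replicate number, marker means as covariates, leaving out arrays, and the choice of probe set.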

Additional observations from a re-analysis of the deposited data

Results flagged for a closer look

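In 80 groups of 5 mice, 40 genes in each genotype, 10 held a mouse far from the other 4 by Dixon's test at 95%, where chance gives about 1 in 20 groups. That is 12.5% of the groups, against 9.58% over all genes measured, and the 80 groups share the same 10 arrays. Wildtype replicate 5 was low in Syt5 at 4.67 (next 5.67) and in Stx8 at 8.17 (next 8.59), and high in Stxbp2 at 7.35 (next 7.20). Heterozygous replicate 3 was low in Syt11 at 5.64 (next 6.28) and in Vamp5 at 7.02 (next 7.68). Stx1a was high in wildtype replicate 3 at 7.57 (next 6.96) and in heterozygous replicate 5 at 7.34 (next 6.96). Wildtype replicate 4 was low in Snap91 at 5.80 (next 6.85). Unc13b was high in heterozygous replicate 4 at 8.19 (next 7.95), and Snap29 in wildtype replicate 2 at 6.95 (next 6.75). Without wildtype replicate 5 the difference of Syt5 was 0.096, and without wildtype replicate 4 that of Snap91 was 0.035.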

How the results depend on the processing

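In limma, 0 probe sets passed, members or others, in each of the 23 alternatives that give such a count, an adjusted threshold of 0.10 among them. The median difference of the family stayed between -0.024 and 0.072 over the alternatives that give one, within the SD of 0.12 between mice, though its sign changed in several. Of 916 gene differences under the alternatives 4 moved by more than the SD between mice, each with another choice of probe set: Stxbp2 in both such choices (0.061 and 0.13), Stx18 (0.26) and Stx5a (-0.30). For many alternatives this outcome was fixed in advance. Leaving out a single mouse of 5 cannot move a difference that far. The filters, the variance prior and the replicate block leave the differences unchanged. Signs did change, in 10 of 40 genes without wildtype replicate 3. The count of 2 member probe sets at an unadjusted p under 0.05 became 1 with the stricter filter, further quantile normalization, median centring, the trended and robust prior, the beta cell covariate or 1 probe set per gene, and 5 with array weights; the cause was not tested. Leaving out each mouse gave 1 to 5, with 5 without heterozygous replicate 2, 4 without wildtype replicate 2, and 1 without wildtype replicate 1 or 4 or heterozygous replicate 1 or 5. With the replicate block it was 2, and the median was 0.0072. Same-numbered mice did not deviate together (r = -0.284 to 0.108), and no number had its own pair as the most alike.

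The probe set ending and the removal of Snap91 (median -0.0035) were alternatives chosen after the data were seen. Dim genes such as Syt16 and Syt1 lie close to background, and 5 mice per genotype limit what could be detected.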
